A study of Drosophila melanogaster with 6 samples.

Results

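The genes described here encode the dosage compensation machinery of Drosophila: msl-1, msl-2, msl-3, mof, mle, JIL-1, Clamp, lncRNA:roX1 and lncRNA:roX2. They were taken by symbol, as the probe sets (groups of short probes meant to read a single transcript unit) which the array annotation assigns to these genes alone. Of the 9 genes listed, 7 had such a probe set, 8 probe sets in all among 18769 tested. The annotation used here gave no probe set to lncRNA:roX1 or lncRNA:roX2, so neither RNA has a value in what follows; the annotation names no gene for 4720 probe sets, and whether any of them reads a roX RNA was not tested.

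Male flies carry a single X chromosome and raise its transcription to balance it with the autosomes. This is the work of the MSL complex, in which MSL-1 and MSL-2 form the scaffold, MSL-3 reads a mark of transcribed chromatin, MOF acetylates histone H4 at lysine 16 and the helicase MLE loads the noncoding roX RNAs. CLAMP, a zinc finger protein, binds GA-rich sites and helps to bring the complex to the X, and the kinase JIL-1 phosphorylates histone H3 and is enriched on the male X. In females the RNA-binding protein Sxl blocks the making of MSL-2. S2 cells, a line from late embryos with the character of blood cells, are male in this respect and have an active MSL complex.

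Total RNA was measured on 1 Affymetrix array per sample. The 3 S2 control arrays came from cells labelled wild type, and the 3 induced arrays from S2 cells labelled dBigH1 induced, whose dBigH1::FLAG line was maintained with hygromycin B (0.3 mg/ml) and moved for the experiment to the medium of the S2 cells. Both groups received 1 mM copper sulphate for 24 h, and no array here is from cells without copper. dBigH1 is a linker histone of the early embryo and the germline, and the series asks what it does to active chromatin. Since no label speaks of separate cultures, p-values measure the variation among these 6 samples alone, and part or all of it may be technical. The lines may also differ in ways beyond dBigH1, and such a difference cannot be told apart from its effect. In RNA from whole cultures, fewer cells of a type and less RNA per cell cannot be told apart either.

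Array medians lay between 6.31 and 6.33 on the log2 scale. BigH1 stood at 4.86 to 5.42 in S2 control and at 13.43 to 13.47 in induced cells, as the labels say. All 12 measured plasmatocyte and S2 marker genes were above the median signal, among them Hml and srp. So were 4 of 5 neuron markers, elav included, 5 of 9 germline markers and 1 of 5 muscle markers. Of the 12 blood cell markers 6 rose, 3 fell and 3 did not pass, whereas 30.5% of all genes and 42.3% of genes above the median signal were called. The 5′ minus 3′ log2 signal of the Act5C control probe sets, a sign of RNA quality, was -1.36 to -1.20 in S2 control and -1.87 to -1.71 in induced cells. Those of the other actin, GAPDH and eIF-4a controls differed between the group means by less, and not all in that direction. One GAPDH pair went the opposite way (-1.97 to -1.90 in S2 control, -1.79 to -1.70 in induced cells), as did the mean of the other actin pair. Means of the remaining GAPDH pair and of eIF-4a went the way of Act5C. The part of RNA quality in the differences below was not tested, and with 3 arrays a group the precision of each value is limited.

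Of the 7 measured genes, 3 rose in induced cells (JIL-1, mle and mof), 0 fell and 4 did not pass (msl-1, msl-2, msl-3 and Clamp), at an adjusted p under 0.05 in limma over all tested probe sets. Among all 11982 genes, 30.5% passed, 14.5% rising and 16.0% falling. All 7 were above the median signal, where 42.3% of genes passed and 21.1% rose. The 3 of 7 called (42.9%) is thus close to the share called in either direction among genes above the median signal, though all 3 rose. By probe set, 3 of 8 passed, against 27.3% of all. Differences were small: they ran from -0.19 to 0.39 on the log2 scale, with a median size of 0.19, against 0.11 among all genes and 0.32 among those that passed.

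**Figure D1:**
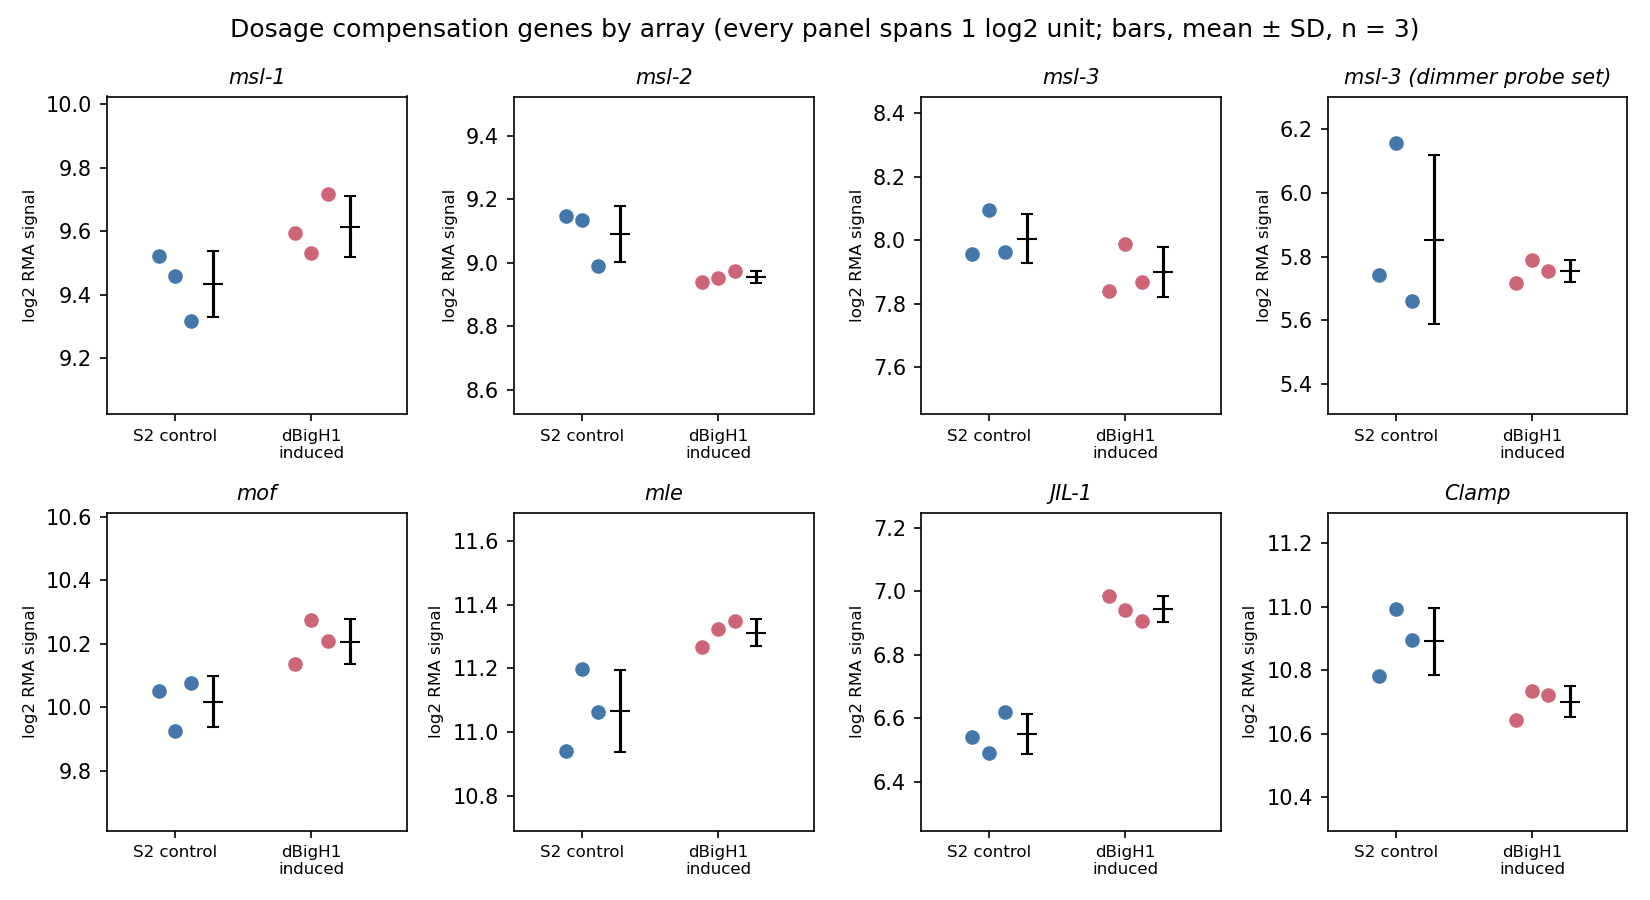
Log2 RMA signal of the 8 probe sets on every array, S2 control (blue) and dBigH1 induced (red), with mean ± SD (n = 3) beside the points and the same 1-unit span in each panel. JIL-1, mle and mof lie higher in induced cells, and the msl-3 panels overlap between the groups.

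The scaffold genes came first. The gene msl-1, whose product holds the other proteins together, had log2 signals of 9.52, 9.46 and 9.32 in S2 control and of 9.60, 9.53 and 9.72 in induced cells. The induced arrays all lay above the controls, but the gap between the nearest arrays was narrow. The log2 difference was 0.18 (95% interval 0.02 to 0.34, limma adjusted p = 0.0900), which did not pass. It did pass without dim probe sets (adjusted p = 0.0487) and with trended moderation (0.0403), in a range of 0.0403 to 0.280 over the 14 other fits. For msl-2, the ring finger subunit present only in males, S2 control gave 9.15, 9.13 and 8.99 and induced cells gave 8.94, 8.95 and 8.98. Here the induced arrays were all lower, though barely so against S2 control replicate 3, and their SD of 0.0184 was below the controls' 0.0870. The log2 difference was -0.14 (interval -0.26 to -0.01, limma adjusted p = 0.119). Without S2 control replicate 3 it passed, at -0.19 (adjusted p = 0.0431). The only msl-2 probe set is of the kind whose probes may be shared with other transcripts. So are the probe sets of several genes named below, among them nsl1, Chro, Trl, psq, Pof, Hat1 and Rox8.

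For msl-3, the chromodomain subunit, the brighter probe set read 7.96, 8.09 and 7.96 in S2 control and 7.84, 7.99 and 7.87 in induced cells. The groups overlapped, with a log2 difference of -0.11 (interval -0.25 to 0.03, limma adjusted p = 0.263). Its dimmer probe set, below the median signal, read 5.74, 6.16 and 5.66 in S2 control and 5.72, 5.79 and 5.76 in induced cells. The difference was -0.10 (interval -0.35 to 0.15), and S2 control replicate 2 alone gave it its sign, since without that array it was 0.05. A change of msl-3 as large as that of JIL-1 (log2 0.39) lies outside both of these intervals in either direction.

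The genes mof and mle were both higher in induced cells. For mof, the H4 lysine 16 acetyltransferase, log2 signals were 10.05, 9.93 and 10.08 in S2 control against 10.13, 10.28 and 10.21 in induced cells. No array of either group crossed into the other. The signal was 1.14-fold higher (log2 0.19, SE 0.06, limma adjusted p = 0.0480), a value just inside the threshold. With 1 array left out it passed only where that was induced replicate 1, and otherwise did not (adjusted p up to 0.173). Nor did it pass with arrays centred on their medians (0.0521) or on ribosomal protein genes (0.0645). For mle, the DExH helicase that remodels roX RNA, the controls stood at 10.94, 11.20 and 11.06 and induced cells at 11.27, 11.32 and 11.35. The induced arrays lay close together above a wider spread of controls (SD 0.0425 and 0.129, n = 3 each). The signal was 1.19-fold higher (log2 0.25, SE 0.07, limma adjusted p = 0.0255). Without S2 control replicate 1 or 3, or induced replicate 2 or 3, mle did not pass (adjusted p up to 0.0831), with a log2 difference of 0.18 to 0.31 over the 6 omissions.

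JIL-1, the H3 kinase, changed most. Its log2 signals were 6.54, 6.49 and 6.62 in S2 control and rose to 6.99, 6.94 and 6.91 in induced cells. The lowest induced array stood clear of the highest control by more than the range within either group. The signal was 1.31-fold higher (log2 0.39, SE 0.05, interval 0.27 to 0.52, limma adjusted p = 0.000551), and the call at an adjusted p under 0.05 held in all 14 other fits, in which it was 0.36 to 0.43. No member reached 2-fold. Over all genes, 95.7% had a lower log2 difference than JIL-1 and 89.2% a smaller one in size. Its signal lies little above the median of all probe sets (6.33), a range where background compresses differences.

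Clamp, the gene of the GA-binding factor, read 10.78, 10.99 and 10.90 in S2 control and 10.64, 10.73 and 10.72 in induced cells. All induced arrays were lower. The log2 difference was -0.19 (interval -0.33 to -0.05, limma adjusted p = 0.0536), just outside the threshold, so Clamp and mof sit on either side of it with differences of nearly the same size. Without S2 control replicate 1 Clamp passed, at -0.24 (adjusted p = 0.0218), and it passed in 6 of 14 other fits in all, with adjusted p from 0.00942 to 0.161. Clamp overlaps the gene CG42748 in RefSeq's Release 6 gene table, and CG42748 fell by 1.00 (SE 0.07, limma adjusted p = 4.894e-06). The table used gives no strand, and whether signal is shared between the pair was not tested.

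Control and induced arrays were fully apart for 6 of the 7 genes, all but msl-3. The same was true of 45.4% of all genes and of 60.6% of those above the median signal. Within groups, S2 control replicate 2 was above its group's mean for 5 of the 7 genes, with 42.9% of all genes above theirs on that array. Induced replicate 3 was likewise above for 5, with 51.6% of all genes. S2 control replicates 1 and 3 and induced replicate 2 were above for 3, 3 and 4, with 49.7%, 59.4% and 54.9% of all genes. Induced replicate 1 was above for 1 of the 7, JIL-1, against 43.9% of all genes. Genes are not replicates, so these counts carry no test.

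The other genes of the pathway were taken from 5 lists, 66 measured of 76 listed. Of these 66, 22 rose, 4 fell and 40 did not pass, with a median log2 difference of 0.09 against -0.01 for all genes. Without induced replicate 3, 9 rose and 2 fell, and without induced replicate 2 or S2 control replicate 2, 10 and 12 rose. Of the 66, 60 were above the median signal, where 21.1% of genes rose and 21.3% fell, against 14.5% and 16.0% of all genes. The lists were chosen with results for these data known. They follow by role.

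MOF also works in the NSL complex, which acts at promoters on all chromosomes. Of its 5 measured genes 2 rose and 3 did not pass. These were wds, a WD repeat protein shared with histone methyltransferases (log2 0.29, SE 0.05, limma adjusted p = 0.00206), and nsl1, the scaffold of the complex (0.27, SE 0.05, limma adjusted p = 0.00247). Of the others, Rcd1 stood at 0.11 (interval up to 0.24), dgt1 at 0.08 (up to 0.20) and Rcd5 at -0.00090 (up to 0.11).

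Among 24 measured partners of the MSL complex, JIL-1 or X recognition, 8 rose, 1 fell and 15 did not pass. The difference was above 0 for 22 of them (median 0.12), against 5728 of all 11982 genes (median -0.01). Chro, a chromodomain protein that binds JIL-1 in interbands of polytene chromosomes, had a log2 difference of 0.43 (SE 0.06), and pzg, the zinc finger protein Z4 that goes with Chro, 0.38 (SE 0.08). Both passed, with log2 differences near that of JIL-1. Jasper, a PWWP protein known to bring JIL-1 to chromatin, stood at 0.16 (interval 0.03 to 0.30, limma adjusted p = 0.0704), which did not pass. Other factors of GA-rich sites passed where Clamp, at -0.19, did not: Trl, which encodes GAGA factor, rose by 0.23 (SE 0.06, limma adjusted p = 0.0126) and psq by 0.22 (SE 0.06, limma adjusted p = 0.0220). Pof, whose product coats the fourth chromosome much as the MSL complex coats the X, fell by 0.18 (SE 0.06, limma adjusted p = 0.0466). The MSL-3 relative MRG15 stood at 0.10 (interval -0.03 to 0.23) and did not pass, and neither did Set2, which writes the mark MSL-3 reads, at 0.12 (interval -0.01 to 0.25).

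Of 12 measured acetyltransferase and deacetylase genes, 4 rose, 2 fell and 6 did not pass. The deacetylase HDAC1 (Rpd3) rose by 0.29 (SE 0.05), HDAC4 by 0.32 (SE 0.06), Sirt6 by 0.29 (SE 0.08), and the acetyltransferase nej, the fly CBP, by 0.21 (SE 0.05). Hat1, which acetylates newly made histone H4, fell by 0.42 (SE 0.07, limma adjusted p = 0.00244). Tip60, of the same MYST family as MOF, fell by 0.18 (SE 0.05, limma adjusted p = 0.0273). The other MYST genes did not pass, chm at 0.03 (interval -0.08 to 0.15) and enok at 0.11 (interval -0.03 to 0.25). Of the MYST genes measured, mof was the one that rose and Tip60 the one that fell.

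Regulators of msl-2 RNA and of sexual identity were the remaining lists. Unr, the RNA-binding partner of Sxl in blocking msl-2 translation in females and a factor for roX RNA in males, fell by 0.30 (SE 0.05, limma adjusted p = 0.00258). The splicing factor U2af50 rose by 0.22 (SE 0.06) and Rox8 by 0.18 (SE 0.05), while Hrb27C and pAbp stood at -0.03 and -0.01. Of 20 sex determination genes 6 rose, 0 fell and 14 did not pass: dsx rose by 0.28 (SE 0.05), her by 0.27 (SE 0.07), Flacc by 0.24 (SE 0.06) and tra2 by 0.17 (SE 0.05). Sxl stood at -0.19 (interval -0.35 to -0.02, limma adjusted p = 0.0951), with groups that overlapped. Male and female splice forms of Sxl, tra and dsx were not told apart here.

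**Figure D2:**
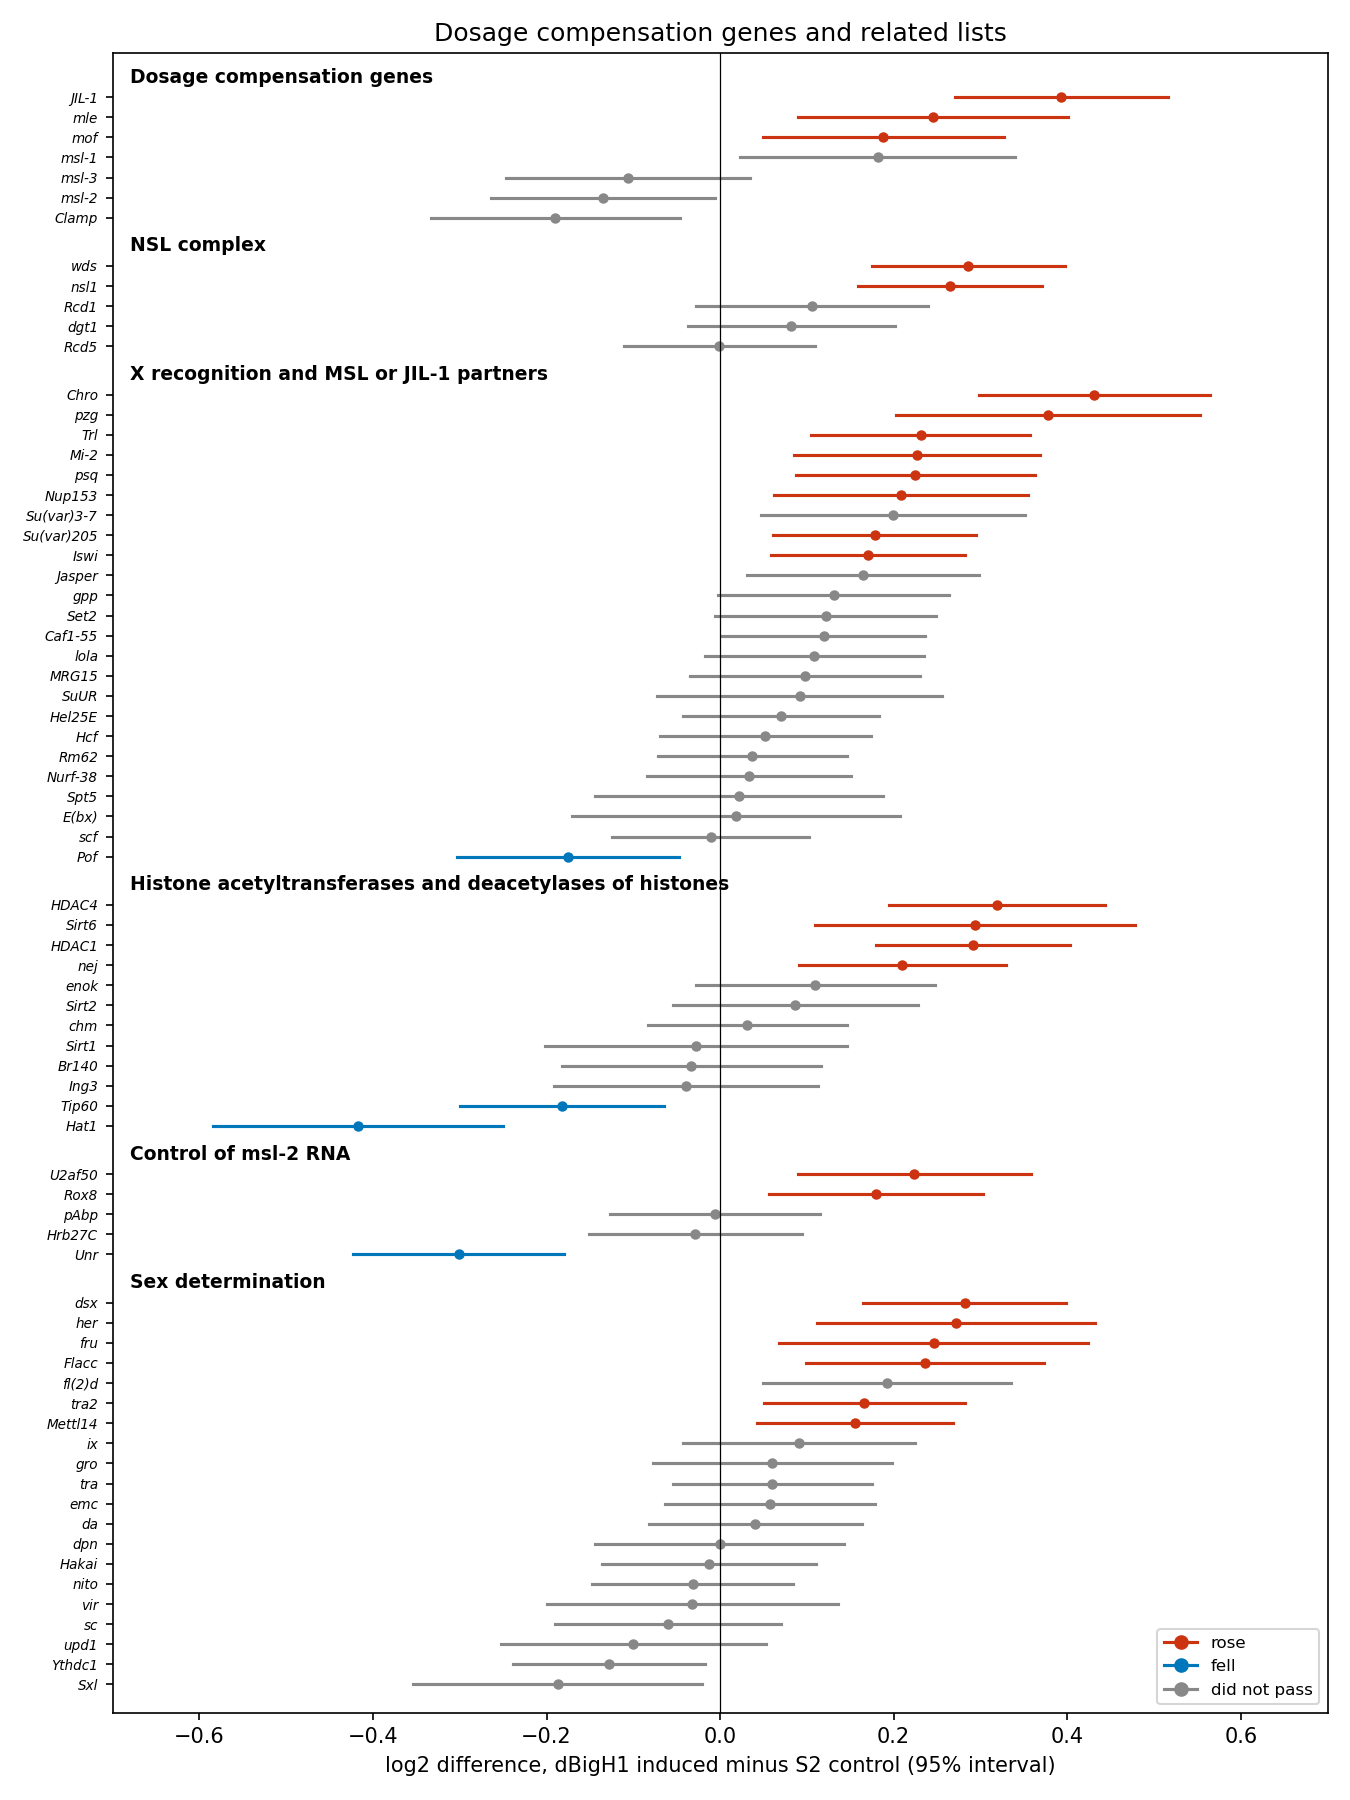
Log2 difference (induced minus S2 control, 3 arrays each) with its 95% interval for the 7 measured dosage compensation genes and the 66 genes of the related lists. Red rose, blue fell and grey did not pass at an adjusted p under 0.05 over all probe sets. JIL-1 and Chro lie farthest to the right, Hat1 and Unr farthest to the left.

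The targets of the complex are the genes of the X, of which 1873 were measured. In induced cells 364 of them rose (19.4%) and 244 fell (13.0%), whereas of 10015 autosomal genes 1367 rose (13.6%) and 1665 fell (16.6%). The median log2 difference was 0.02 on the X, -0.01 on the autosomes together, and between -0.02 and -0.0035 on each autosomal arm. The arms closest to the X in the share that rose were 2L (15.2%) and 3R (14.2%). Genes are not replicates, so these shares carry no test. With a change of at least 2-fold also required, 4 X-linked genes rose and 20 fell, so the excess of rises over falls on the X lies among smaller changes. Autosomal rises and falls were not compared at 2-fold.

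**Figure D3:**
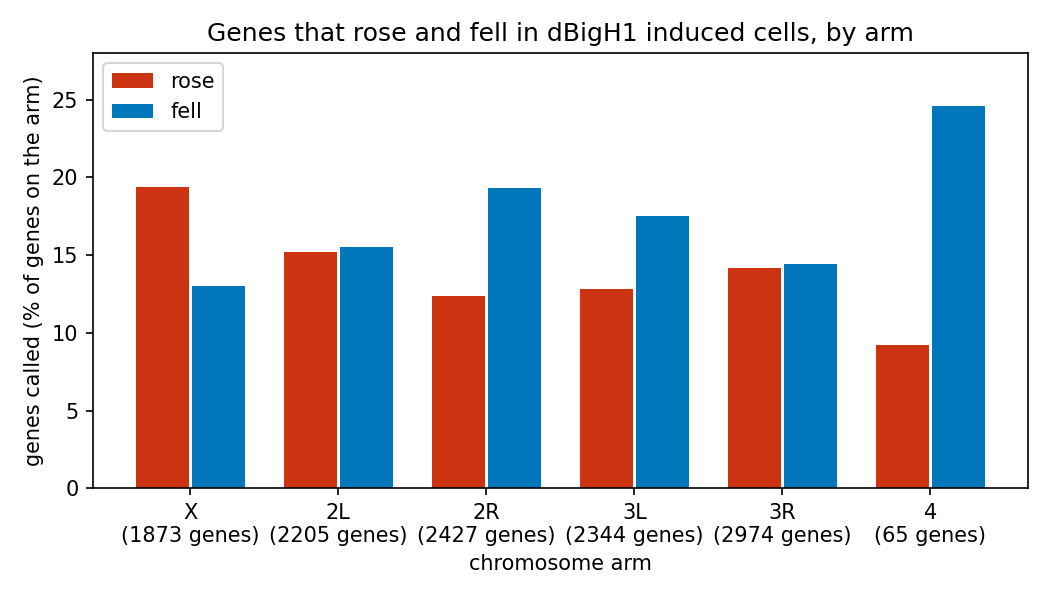
Share of measured genes on each chromosome arm that rose (red) or fell (blue) in induced cells at an adjusted p under 0.05. On the X, 19.4% rose and 13.0% fell. On 2R, 12.4% rose and 19.3% fell.

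Taken array by array, with each gene set to its own mean over the 6 arrays, the X-linked median minus the autosomal median was -0.0207 to -0.0170 in S2 control and 0.0174 to 0.0205 in induced cells. The groups mirror each other because of that centring. The shift was 0.04 on the log2 scale, with an exact two-sided permutation p of 0.1, the smallest that 3 against 3 arrays allow. Measured in the same way against all other arms, 2R shifted by -0.02 and 3L by -0.02, also without overlap between groups, 3R by 0.0052, likewise without overlap, and 2L by 0.0034 with overlap. A shift as small as that of 3R thus also set the groups apart. The X shift was thus the largest of the 5 large arms, while chromosome 4, with 65 genes, stood at -0.05 with overlapping groups.

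The X shift went with signal. When the placed genes were split into 5 equal groups by mean signal, the X minus autosome difference of medians was -0.01 in the dimmest group, 0.0070 and 0.02 in the next ones, 0.08 in the fourth and 0.05 in the brightest. In the fourth group 31.4% of 423 X-linked genes rose and 15.8% fell, against 22.0% and 22.7% of 1955 autosomal genes. In the dimmest group 1.60% of X-linked and 1.79% of autosomal genes rose. Along the X, cut into 10 runs of 187 to 188 neighbouring measured genes, rises outnumbered falls in 9 runs. The exception was the seventh run, with 21 rises and 43 falls. On the autosomal arms, rises outnumbered falls in 0 (2R) to 5 (2L) of 10 runs. By the median log2 difference of a run, the X stood less apart. That median lay above the median of all autosomal genes in 9 runs on the X, 8 on 3R, 7 on 2R, 5 on 2L and 4 on 3L.

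**Figure D4:**
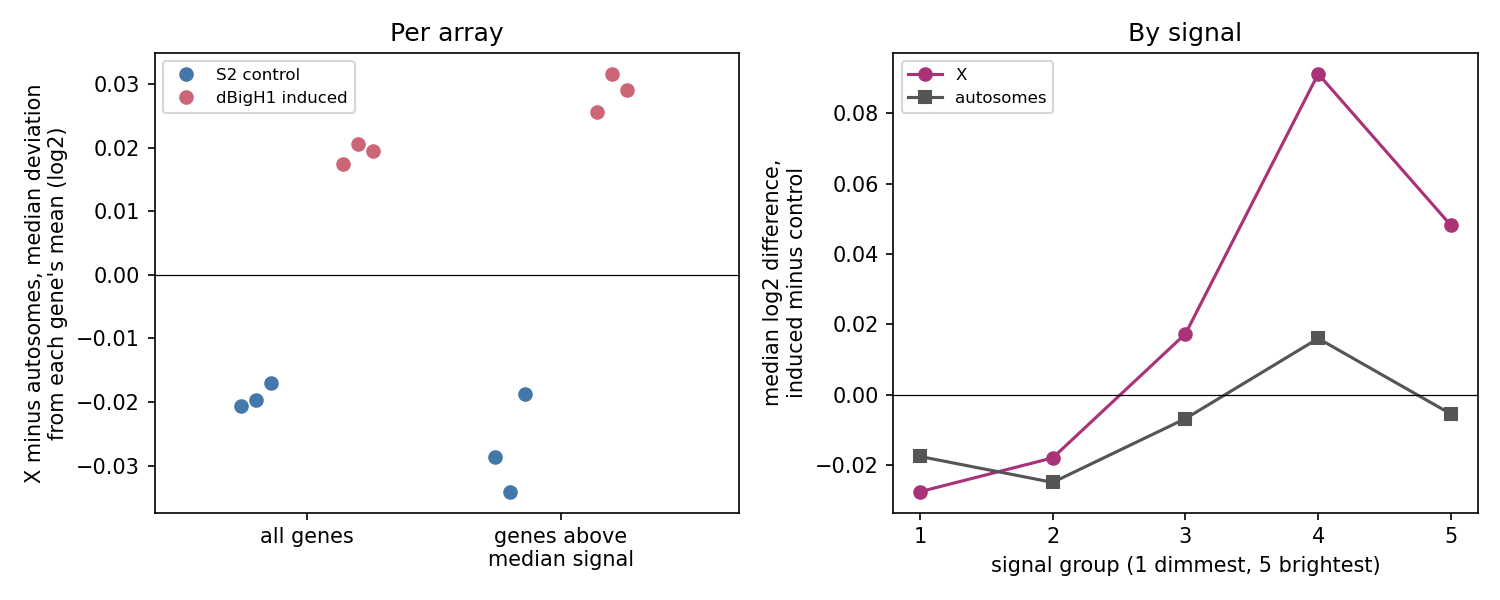
Left, X minus autosome median per array (log2, each gene set to its mean over 6 arrays), for all genes and for genes above the median signal; S2 control in blue, induced in red. Right, median log2 difference of X-linked and autosomal genes in 5 groups of rising mean signal; the lines part from group 3 upwards, with medians of 0.09 and 0.02 in group 4.

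Genes next to those of the machinery were read last, as the closest measured neighbour on each side in RefSeq's Release 6 gene order. Of the 18 neighbours 3 rose, 5 fell and 10 did not pass, beside 14.5% rising and 16.0% falling among all genes. No probe set was assigned to the roX genes, but their surroundings had some. The roX genes lie on the X, where 19.4% of measured genes rose and 13.0% fell. At lncRNA:roX1, the overlapping gene ec, a ubiquitin protease gene, rose by 0.47 (SE 0.09, limma adjusted p = 0.00315), and yin, a peptide transporter gene, by 0.39 (SE 0.05, limma adjusted p = 0.000333), while CG2901 on the other side stood at -0.02. At lncRNA:roX2, the kinesin-like gene nod rose by 0.31 (SE 0.05, limma adjusted p = 0.00142) and CG11695 stood at 0.12. Whether the ec probes read roX1 RNA was not tested.

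At the protein-coding members, neighbours often differed from the member between them. Beside mle, CG7881 and Pngl fell by 0.66 and 0.40 (SE 0.06 and 0.05). Beside Clamp, CG3635 rose by 1.43 (SE 0.06), while CycK fell by 0.23 (SE 0.06). CG3246 beside msl-2 fell by 0.52 (SE 0.05) and ND-PDSW on its other side stood at 0.16, and CG31751 beside msl-1 fell by 0.28 (SE 0.06) with CG10336 at 0.20. The neighbours of mof, GAA1 and Usp30, stood at 0.15 and 0.05, and those of JIL-1, Noc1 and Iyd, at 0.12 and 0.06; none of these 4 passed. Around msl-3, form3, Cpr65Ec and BBS1 stood at -0.12, -0.01 and -0.0035 and did not pass either.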

How the data were processed

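Values were taken as deposited. The authors deposited a log2 value per probe set from RMA, per the submitters' processing notes. RMA subtracts background, brings arrays to a like distribution and combines the probes of a set, so a change shared by all transcripts is removed. Its version is not given in the sources used here. Of 18952 probe sets, 183 platform controls were left out. The platform annotation gave 13647 probe sets 1 gene, 402 several and 4720 none; symbols, arms and gene order came from RefSeq (Release 6). The brightest probe set stood for a gene (11982 genes).

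Groups were compared with limma 3.58.1 in R 4.3.3 (lmFit, eBayes, no trend, two-sided, Benjamini-Hochberg over 18769 probe sets, threshold 0.05); all adjusted p-values are from it, and the fit was tested on simulated data. "Rose" and "fell" mean passed, and differences are induced minus S2 control. The rule for named genes took every member, the check gene BigH1, flanking or overlapping genes, 6 fixed genes and up to 4 called genes per list and direction by adjusted p; others named were chosen after their values were seen. Of 120 list entries 118 matched a current gene. The members and lists were chosen with earlier results of these data known. The comparison with genes above the median signal, and for the X its gene counts under other settings, its difference from other arms, the signal groups and the runs along arms, were added after the data were seen. The spread against which a move of the X-linked median was judged was changed, after a first result was seen, to the SD of that median among control arrays. Alternatives changed the filter, scaling, moderation, weights, replicate block, probe set rule, threshold and arrays used.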

Additional observations from a re-analysis of the deposited data

How the results depend on the processing

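JIL-1 and msl-3 (brighter probe set) kept their direction and their side of the threshold in all 14 other fits at an adjusted p under 0.05. Without dim probe sets, msl-1 (0.18) and Clamp (-0.19) also passed, giving 1 fall and 5 member probe sets called, an X-linked median of 0.0519 and an X minus autosome difference of 0.0508. More genes passed in general: 3525 were called, against 2957 of the 6984 genes above the median signal with all probe sets kept. Trended robust moderation gave the same calls: msl-1 at 0.18, Clamp at -0.19, 1 fall and 5 probe sets. It called 4183 of all genes, against 3657 without it. Centring on array medians left mof at 0.19, not passing. Centring on ribosomal protein genes left mof at 0.18, not passing, with Clamp passing at -0.20 (1 fall). A further quantile normalisation gave an X minus autosome difference of 0.0248. With probe sets averaged per gene Clamp passed (-0.19, 1 fall), among 3923 genes called. No pairing of the arrays by replicate number was visible: same-numbered deviations correlated at 0.04, -0.10 and 0.01, and 2 of 6 arrays correlated best with their own number. These values cannot tell whether same-numbered samples were handled together. With the replicate block mof (0.19) did not pass, Clamp did (-0.19, 1 fall), 2 related genes fell and 3276 genes were called in place of 3657.

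With 1 array left out in turn, which leaves fewer samples, log2 differences ran from 0.12 to 0.23 for msl-1, from -0.19 to -0.11 for msl-2, from 0.14 to 0.22 for mof, from 0.18 to 0.31 for mle and from -0.24 to -0.14 for Clamp. The dimmer msl-3 probe set reversed to 0.0527 without S2 control replicate 2. Between 1 and 3 members rose, 0 to 1 fell and 1 to 3 member probe sets were called. Only JIL-1 rose without S2 control replicate 1 or 3 or induced replicate 2 or 3. In the related lists 9 to 20 genes rose (12 without S2 control replicate 2, 9 without induced replicate 3, 10 without induced replicate 2) and 2 to 4 fell. The X-linked median was 0.01 to 0.03, the X minus autosome difference 0.0286 to 0.0337, and 266 to 342 X-linked genes rose with 196 to 238 falling.

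At an adjusted p under 0.01, 1 member gene (1 probe set), 7 related genes and 230 X-linked genes rose, and 2 related and 161 X-linked genes fell, among 2356 genes called. With at least 2-fold required, 0 members (0 probe sets) and 0 related genes passed in either direction, and 4 X-linked genes rose and 20 fell, among 176 called. The cause was not tested where fewer samples or a stricter rule does not give it. On the X, rises outnumbered falls under every setting tried except that of at least 2-fold. The dimmer msl-3 probe set lies below the median signal.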
